A study of Mus musculus with 10 samples.

Results

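Krt23, a type I keratin, was examined together with other keratins and with genes of cholangiocytes, the epithelial cells that line the bile ducts, in livers of mice lacking macroH2A1 and macroH2A2. The set named 9 genes: the type I keratins Krt23, Krt19 and Krt18, the type II keratins Krt7 and Krt8, and the biliary genes Epcam, Sox9, Spp1 and Cftr. Of these, 8 genes had a probe set that the platform annotation gives to that gene alone, on 9 of the 25335 probe sets tested and of 41345 in all. Spp1, which encodes osteopontin, was not analysed here because no probe set was annotated to it. Krt18 had 2 probe sets, and the other 7 genes had 1 each. Krt23 was chosen because it stood among the largest rises of the same comparison, so its difference is given as a description, and the values of the other members come from that comparison too.

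Livers came from male mice of the strain 129/S6 (taconic), aged 2 months and fasted overnight for about 16 h, with 5 macroH2A1 macroH2A2 double knockout livers and 5 wild-type livers on 10 arrays. All mice of both groups were fed a low fat chow before the fast and were killed in the morning. MacroH2A proteins are histone H2A variants with a large non-histone domain. The sources used here do not say how the knockout alleles were made. Levels were log2 values per probe set, so a difference of 1 is a doubling, and levels of different probe sets cannot be set against each other.

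Keratins form intermediate filaments from pairs of a type I and a type II protein. Hepatocytes make Krt8 and Krt18, whereas cholangiocytes add Krt7 and Krt19, so the last pair is commonly used to recognise bile ducts. Krt23 is a type I keratin that has been described in the ductular reaction of injured mouse liver, in which cells with biliary keratins increase. The comparison therefore bears on whether Krt23 moved together with bile duct genes or apart from them.

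The deleted genes and the general quality of the arrays were checked first. Macroh2a1 averaged 9.11 ± 0.07 in double knockout and 9.60 ± 0.07 in wild-type livers (SD, n = 5 each), with no overlap, while Macroh2a2 averaged 6.12 ± 0.19 in double knockout and 6.32 ± 0.28 in wild-type livers and overlapped. Both Macroh2a2 means lay under the background guide of 6.54 described below, which leaves little room to see a loss. The sources used here do not say whether the probe sets of Macroh2a1 and Macroh2a2 cover the deleted parts of the genes, so the remaining signal checks the labels only in part. The 12 hepatocyte markers averaged 13.10 to 13.15 on double knockout arrays and 13.09 to 13.15 on wild-type arrays, and all 12 lay above the background guide described next. Probe sets of 1108 olfactory receptors, genes not known to be used in liver, gave a guide to background, with a median of 4.63 and a 95th percentile of 6.54 on the log2 scale. Calls required an adjusted p under 0.05 in limma, fitted on all 25335 probe sets, and 224 met it.

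Krt23 was higher in every double knockout liver than in any wild-type liver. Its log2 levels were 8.31, 8.45, 8.16, 8.45 and 8.46 in double knockout replicates 1 to 5, against 7.61, 7.84, 7.17, 7.81 and 7.18 in wild-type replicates 1 to 5. The double knockout livers lay close together, whereas the wild-type livers fell into a lower pair, replicates 3 and 5, and 3 higher ones. The means were 8.37 ± 0.13 in double knockout and 7.52 ± 0.33 in wild-type livers (SD, n = 5 each), a log2 difference of 0.85 (SE 0.13), or 1.80-fold with a 95% interval of 1.47 to 2.20. All 10 levels exceeded the olfactory 95th percentile. Krt23 was the only 1 of the 8 measured members that was called, beside 0.884% of all probe sets. It was also the only member whose groups did not overlap, beside 3.90% of all probe sets. Nothing is read from these counts, since Krt23 was picked on this comparison. Its call was lost without double knockout replicate 4 (difference 0.82, limma adjusted p = 0.0556) and without double knockout replicate 5 (difference 0.82, limma adjusted p = 0.0513). Bulk RNA does not separate a change in the number of cells of a type from a change of RNA per cell.

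**Figure D1:**
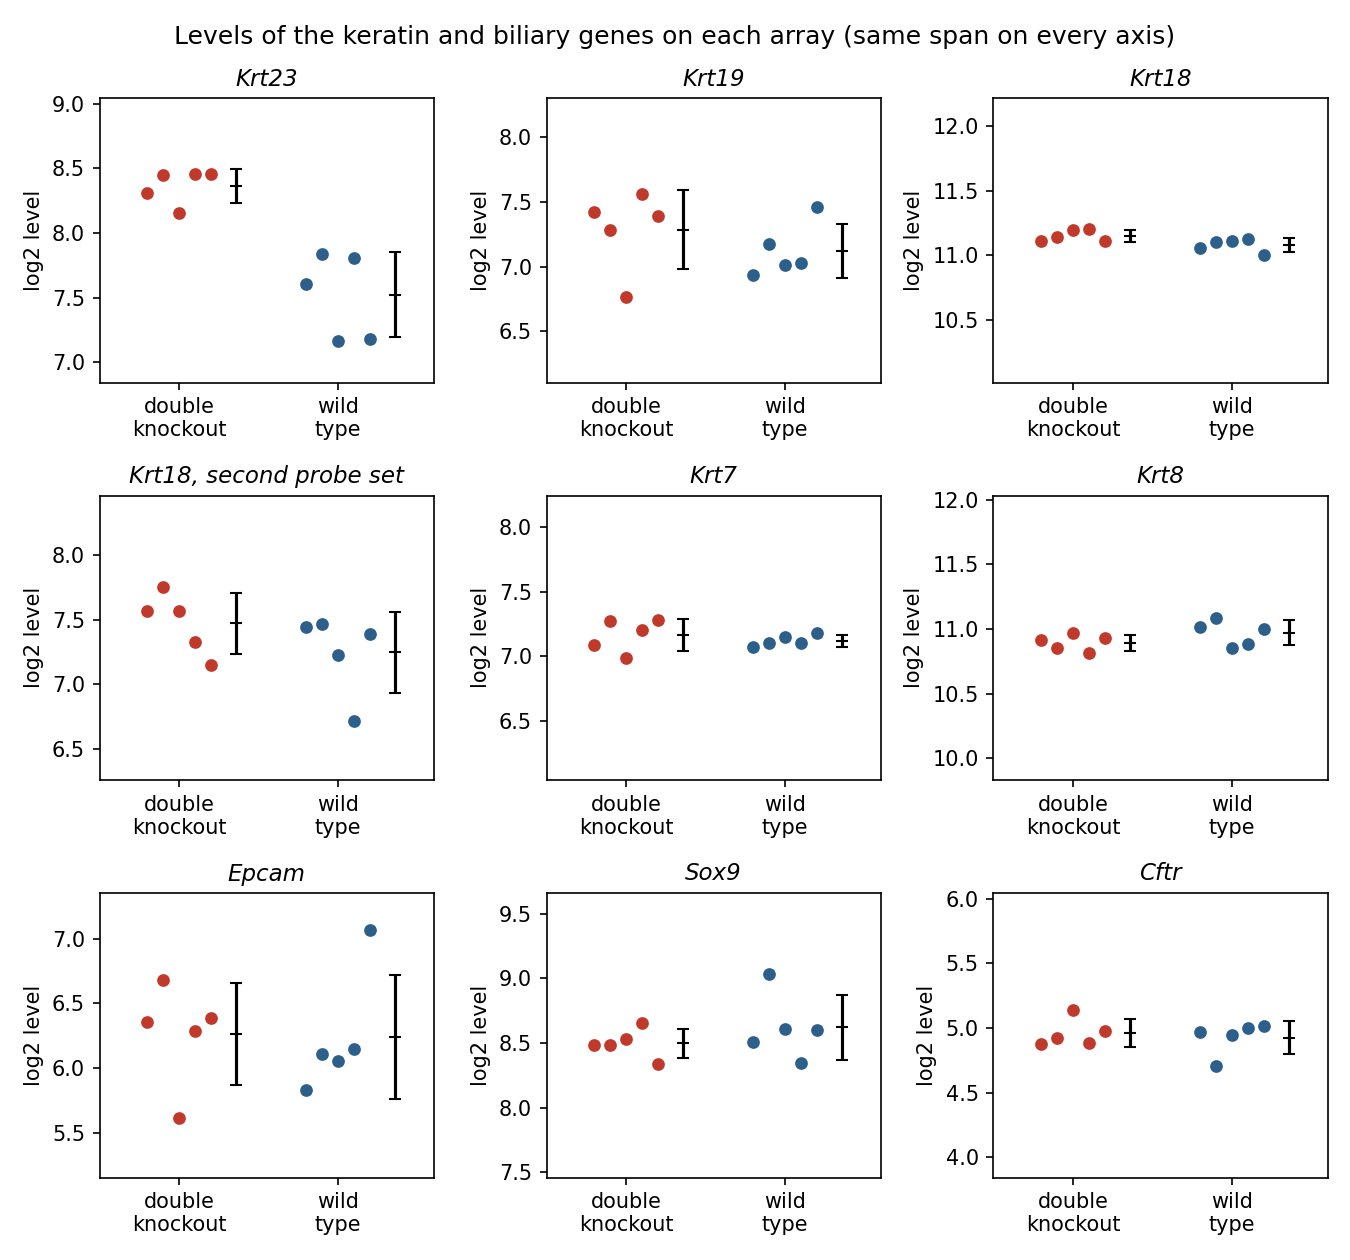
Log2 level of each probe set (vertical axis, spanning the same range of log2 units in every panel) in the 5 double knockout livers (red, replicates 1 to 5 from left to right) and the 5 wild-type livers (blue), with the mean and SD of each group in black. The groups are apart for Krt23, at 8.16 to 8.46 in double knockout and 7.17 to 7.84 in wild-type livers, and overlap for the other 8 probe sets.

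The sequence before Krt23 is shown because Krt23 is the member that differed while the genes beside it on the chromosome, described further on, did not pass the test. It covers 250 bases before and 50 bases after the gene start, at chr11:99493071-99493370 on the minus strand of GRCm38.p6, from RefSeq. It reads 5′ to 3′, and the capitals mark the match to a searched motif:
Krt23: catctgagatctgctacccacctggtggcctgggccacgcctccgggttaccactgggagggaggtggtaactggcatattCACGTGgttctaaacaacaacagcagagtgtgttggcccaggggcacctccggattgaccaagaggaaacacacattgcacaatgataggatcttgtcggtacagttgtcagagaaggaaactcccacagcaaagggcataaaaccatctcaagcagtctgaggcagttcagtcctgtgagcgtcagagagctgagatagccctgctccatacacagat
The TATA box TATAAA, the box CCAAT, the GC box GGGCGG, the E-box CACGTG, the AP-1 motif TGACTCA and the Sox motif AACAAT were searched on both strands. The 1 match was the palindromic E-box CACGTG, which begins 169 bases before the gene start and overlaps no other searched motif. This motif occurs in 7.15% of the 32851 promoter windows of the same length, CCAAT in 37.4%, GGGCGG in 35.7%, TATAAA in 13.6%, AACAAT in 10.7% and TGACTCA in 5.2%. Of the 9 genes named, 7 had a promoter in the RefSeq table, all but Krt19 and Sox9. Among them Epcam also held CACGTG, 30 bases after its start, and the GC box GGGCGG matched in Krt7, Cftr and Epcam. TATAAA began 211 bases before the start in Spp1 and 3 and 1 bases before it in Krt8. CCAAT began 46 bases before the start in Spp1 and just after it in Cftr. Only exact matches were searched, so variants of these motifs, also in Krt23, would be missed.

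The hepatocyte keratins Krt8 and Krt18 showed small differences of opposite sign. Krt18, the type I partner, stood at 11.11, 11.14, 11.20, 11.20 and 11.11 in double knockout livers, against 11.06, 11.11, 11.11, 11.13 and 11.002 in wild-type livers. The groups overlapped, and the difference was 0.07 (SE 0.04, 95% interval -0.02 to 0.16). Krt8, the type II partner, stood at 10.91, 10.85, 10.97, 10.81 and 10.93 in double knockout livers, against 11.02, 11.09, 10.86, 10.88 and 11.003 in wild-type livers. Its groups overlapped as well, with a difference of -0.07 (SE 0.05, 95% interval -0.19 to 0.04). The second Krt18 probe set was more variable, at 7.15 to 7.75 in double knockout and 6.71 to 7.47 in wild-type livers. Its difference was 0.22 (SE 0.15, 95% interval -0.10 to 0.54), and without the 4 arrays with pancreas RNA described below it was -0.03 (SE 0.11).

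The keratins that mark bile ducts overlapped between the groups. Krt19 had log2 levels of 7.42, 7.29, 6.77, 7.56 and 7.39 in double knockout livers, against 6.93, 7.17, 7.01, 7.03 and 7.46 in wild-type livers. The highest level was in double knockout replicate 4 and the lowest in double knockout replicate 3, so that the double knockout livers enclosed the whole wild-type range. The difference was 0.16 (SE 0.14, 95% interval -0.14 to 0.47). Krt7, the type II keratin of bile ducts, stood at 7.09, 7.27, 6.99, 7.21 and 7.28 in double knockout livers, against 7.07, 7.10, 7.15, 7.10 and 7.18 in wild-type livers. Its difference was 0.05 (SE 0.06, 95% interval -0.08 to 0.18), and the SD was 0.13 in double knockout and 0.04 in wild-type livers.

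Among the biliary genes outside the keratin family, Sox9, a transcription factor of bile duct formation, had levels of 8.48, 8.48, 8.53, 8.65 and 8.34 in double knockout livers, against 8.51, 9.03, 8.61, 8.35 and 8.60 in wild-type livers. The groups overlapped, with a difference of -0.12 (SE 0.11, 95% interval -0.35 to 0.11). Epcam, an adhesion protein of biliary epithelium, had levels of 6.36, 6.68, 5.61, 6.29 and 6.38 in double knockout livers, against 5.83, 6.11, 6.05, 6.15 and 7.06 in wild-type livers. Its lowest array was double knockout replicate 3 and its highest wild-type replicate 5, and the difference was 0.02 (SE 0.23, 95% interval -0.47 to 0.52). Cftr, the chloride channel of the cholangiocyte apical membrane, ranged from 4.88 to 5.14 in double knockout and from 4.70 to 5.01 in wild-type livers, with a difference of 0.03 (SE 0.07). The means of Cftr (4.94) and Epcam (6.25) over all arrays were under the olfactory 95th percentile. The Cftr probe set therefore gave little room to see a change, while Epcam levels still spread from 5.61 to 7.06 between arrays.

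The 7 measured members other than Krt23 had differences from -0.12 to 0.16 with a median of 0.03, beside a median of -0.003 over all probe sets tested. None of the 7 was called in limma, and at an unadjusted p under 0.05 there was also 0 of 7, beside 15.1% of all probe sets, the share to set beside each later count at this threshold. Signals near background are compressed on arrays, so a true change in Cftr or Epcam could be larger than its measured difference.

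**Figure D2:**
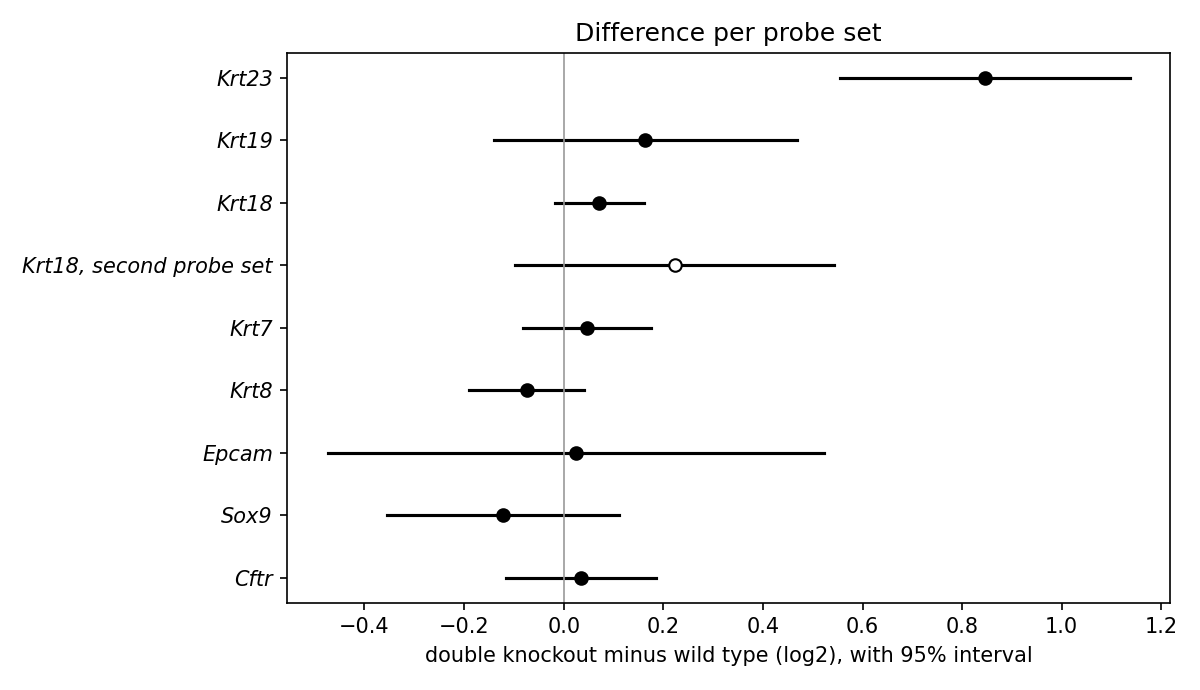
Double knockout minus wild-type difference on the log2 scale for each of the 9 probe sets (horizontal axis, points) with its 95% interval from limma (lines). The open point is the second Krt18 probe set. Krt23 stands at 0.85, with an interval of 0.55 to 1.14, while the intervals of the other 8 probe sets include 0.

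A wider list of 30 genes known from bile ducts, of which 27 had a probe set, was then set beside Krt23. None was called in limma, 6 of 27 had an unadjusted p under 0.05 beside 15.1% of all probe sets, 17 had a higher and 10 a lower mean in double knockout livers, and the median difference was 0.05. The gene of lowest p was Cd24a, a surface glycoprotein of biliary and other epithelia. It stood at 8.67, 8.60, 7.64, 8.70 and 8.10 in double knockout livers, against 7.13, 7.55, 7.69, 7.47 and 8.23 in wild-type livers, a difference of 0.73 (SE 0.23, limma adjusted p = 0.157). Its second probe set, at a mean of 5.18, had 0.07. Next was Slc10a2, the bile acid uptake transporter of cholangiocytes and ileum, with means of 8.27 ± 0.12 in double knockout and 8.53 ± 0.16 in wild-type livers (SD, n = 5 each) and a difference of -0.26 (SE 0.08, limma adjusted p = 0.161). Genes with groups that did not overlap were Pkhd1, which encodes fibrocystin of the cholangiocyte cilium, with 6.83 to 6.93 in double knockout and 6.98 to 7.18 in wild-type livers, and Dcdc2a, also a ciliary gene, with 6.65 to 6.868 in double knockout and 6.869 to 6.95 in wild-type livers. Groups did not overlap for 3.90% of all probe sets. Both genes averaged less in the double knockout group, with differences of -0.14 and -0.13, were not called, and were picked after their values were seen. The list thus held members on both sides of 0, and 7 of the 27 lay below the olfactory 95th percentile.

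Several duct genes varied widely between livers of the same group. Dmbt1, a secreted scavenger receptor protein of ducts and gut, had log2 levels of 10.43, 10.53, 6.46, 10.25 and 10.07 in double knockout livers, against 5.198, 8.85, 5.207, 8.80 and 11.17 in wild-type livers. Double knockout replicate 3 stood apart from its group, and wild-type replicate 5 had the highest level of all. Mmp7, the protease matrilysin of duct epithelium, was likewise lowest of its group in double knockout replicate 3 and highest of all in wild-type replicate 5, at 8.50, 9.15, 6.99, 8.07 and 8.73 in double knockout livers and 6.94, 7.18, 6.67, 6.85 and 9.19 in wild-type livers. Muc1, an epithelial mucin, stood at 7.48, 7.29, 5.80, 7.72 and 7.06 in double knockout livers and 6.38, 6.77, 6.25, 6.56 and 8.17 in wild-type livers. The differences between groups were 1.71 (SE 1.14) for Dmbt1, 0.92 (SE 0.48) for Mmp7 and 0.24 (SE 0.40) for Muc1, with limma adjusted p = 0.536, 0.406 and 0.84. The second Mmp7 probe set, at a mean of 5.09, had 0.05. Dmbt1 and Mmp7 were picked after their values were seen.

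Krt23 took the order of these genes only in part. In double knockout replicate 3, which had the lowest Muc1, Epcam and Krt19 levels of all 10 arrays, Krt23 was 8.16. This was the lowest Krt23 level of that group, though above all wild-type livers. Among wild-type livers Krt23 was highest in replicates 2 and 4, at 7.84 and 7.81, where Dmbt1 was 8.85 and 8.80. In wild-type replicate 5, which had the highest Dmbt1, Mmp7, Muc1 and Epcam levels of all 10 arrays, Krt23 was 7.18, the second lowest of all. That liver also had the highest mean of the pancreas acinar markers described below, 11.08. With the mean of the 27 other biliary genes as a covariate, an alternative added once the data were known, the Krt23 difference was 0.84 (SE 0.15), while that of Krt19 was 0.01 (SE 0.08). That mean was 7.39 to 7.91 on double knockout and 7.42 to 7.97 on wild-type arrays. After group means were removed it had a Pearson's r of 0.75 with the pancreas acinar mean, so it is not a measure of bile ducts alone.

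**Figure D3:**
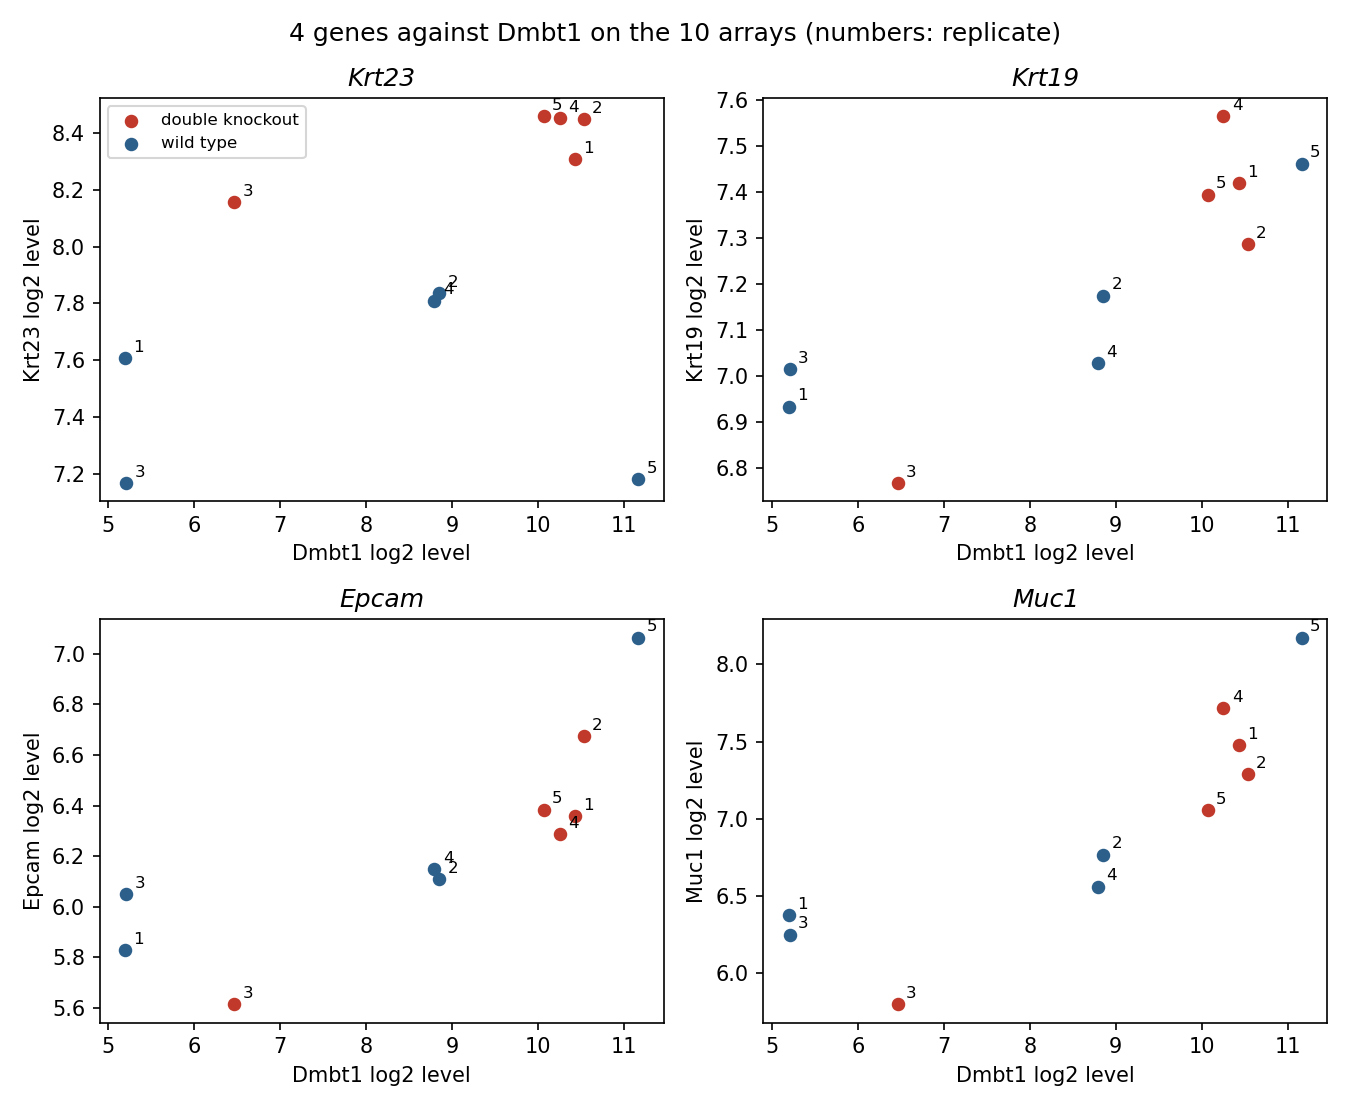
Log2 levels of Krt23, Krt19, Epcam and Muc1 (vertical axes) against that of Dmbt1 (horizontal axes) on the 10 arrays, with double knockout livers in red, wild-type livers in blue and the replicate number beside each point. Krt19, Epcam and Muc1 are high where Dmbt1 is high in both groups, while Krt23 is 7.18 in wild-type replicate 5, where Dmbt1 is 11.17. In double knockout replicate 3, where Dmbt1 is 6.46, Krt23 is 8.16, the lowest of its group but above all wild-type livers.

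The likeness of patterns was described by Pearson's r over the 10 arrays after the group means were removed, so that a shared difference between groups adds nothing. On this measure Krt23 had r of 0.06 with Krt19, 0.09 with Krt7, 0.14 with Krt8, 0.31 with Krt18, 0.11 with Sox9, -0.16 with Epcam and -0.52 with Cftr. With some genes of the wider biliary list, chosen with their values known, it had 0.62 for Slc10a2, 0.60 for Pkhd1, 0.37 for Cldn3 and 0.22 for Dmbt1. The values were 0.06 for Dcdc2a, -0.05 for Muc1, -0.14 for Mmp7 and -0.20 for Cd24a. Krt19 had r of 0.82 with Epcam, 0.95 with Muc1, 0.87 with Cd24a and 0.83 with Dmbt1. All arrays enter each of these values, and no p is attached to them. Krt19, Epcam, Muc1, Cd24a and Dmbt1 were all lowest of their group in double knockout replicate 3 and highest of theirs in wild-type replicate 5. Krt23 was also lowest of its group in double knockout replicate 3, but was second lowest of its group in wild-type replicate 5.

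Among 11643 genes with levels above the olfactory 95th percentile, those whose deviations followed Krt23 most closely were Utp6, a ribosome assembly factor, with r of 0.98, and Klhl28, a kelch protein, with 0.97. Then came Wdr62, a spindle pole protein (0.91), Prdx4, a peroxiredoxin of the endoplasmic reticulum (0.90), Copg2, a coatomer subunit (0.90), Acads, an acyl-CoA dehydrogenase (0.90), Ago2, an Argonaute protein (0.89), and Mib2, a ubiquitin ligase (0.89). Being the highest of 11643, such values are large by selection. None of these 8 genes was called in limma, and their differences ran from -0.25 for Prdx4 (limma adjusted p = 0.0701) to 0.14 for Utp6. Utp6 stood at 7.97 to 8.07 in double knockout and 7.79 to 7.98 in wild-type livers, with the same wild-type replicates, 3 and 5, lowest. The genes that followed the mean of Krt7, Krt19, Epcam, Sox9 and Cftr most closely were Fam25c (0.97), Muc1 (0.94), the LIM protein gene Crip1 (0.93) and Cd44, the hyaluronan receptor (0.93). Cd44 averaged 7.19 ± 0.25 in double knockout and 6.77 ± 0.32 in wild-type livers (SD, n = 5 each) and was not called (difference 0.43, limma adjusted p = 0.211).

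The rest of the keratin family held no called gene. Of 48 other keratin genes, 0 were called in limma and 3 had an unadjusted p under 0.05. Their differences ran from -0.21 to 0.16 with a median of -0.01, 21 had a higher and 27 a lower mean in double knockout livers, and 33 lay below the olfactory 95th percentile. The 2 of lowest p were type II keratins of the hair follicle. Krt74 stood at 5.28 to 5.43 in double knockout and 5.12 to 5.26 in wild-type livers (difference 0.16, SE 0.05, limma adjusted p = 0.123), and Krt87 at 4.80 to 5.004 in double knockout and 4.95 to 5.30 in wild-type livers (difference -0.21, SE 0.07, limma adjusted p = 0.186). Both lay below the olfactory 95th percentile. The 25 other keratin genes on chromosome 11, which holds the type I cluster, had a median of 0.001, and the 23 on chromosome 15, with the type II cluster, had -0.01.

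The genes next to Krt23 on chromosome 11 were taken from the RefSeq order of GRCm38.p6, 10 with a probe set on each side. None of the 20 was called in limma, 1 had an unadjusted p under 0.05, and differences ran from -0.13 to 0.09. On the side of lower coordinates, Krt20, a keratin of gut epithelium, had -0.01 (SE 0.07), Krt12, a corneal keratin, -0.12 (SE 0.09) and Krt10, a keratin of the epidermis, -0.10 (SE 0.08). On the other side, Krt39 had -0.01 (SE 0.05), Krt40 -0.01 (SE 0.08) and the keratin-associated gene Krtap3-1 -0.13 (SE 0.04, limma adjusted p = 0.12). Of the 20, 15 lay below the olfactory 95th percentile.

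Partners of keratins and other intermediate filaments were also examined. Of 17 measured partners, such as desmosome and plectin-family genes, 0 were called in limma, 2 had an unadjusted p under 0.05 and the median difference was 0.01. The lowest p belonged to Pinx1, a nucleolar telomerase inhibitor, with 0.20 (SE 0.06, limma adjusted p = 0.122), and to the desmosomal cadherin Dsg2, with -0.16 (SE 0.05, limma adjusted p = 0.178) and -0.01 on its second probe set. Of 15 other intermediate filament genes, 0 were called in limma and 1 had an unadjusted p under 0.05, with a median of -0.003. Nes, which encodes nestin, had -0.22 (SE 0.07, limma adjusted p = 0.157), and the lens filament gene Bfsp2 had -0.08 (SE 0.06).

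Markers of other cells that can carry epithelial keratins were measured on the same arrays. Pancreas acinar markers (14 of 18 measured) averaged 8.59, 8.80, 6.12, 6.74 and 6.18 on double knockout arrays, against 6.12, 6.20, 6.04, 9.86 and 11.08 on wild-type arrays. Double knockout replicates 1 and 2 and wild-type replicates 4 and 5 thus stood above the others, and pancreas ducts also express Krt7, Krt19, Sox9, Epcam and Cftr. Of these markers 0 were called in limma, also at an unadjusted p under 0.05, and 12 of 14 had a lower mean among double knockout livers, with 0.12 for Try5 and -1.05 (SE 0.69) for Prss2. Without those 4 arrays, 3 livers in each group gave a Krt23 difference of 0.82 (SE 0.16, limma adjusted p = 0.121), with 8.36 ± 0.17 in double knockout and 7.54 ± 0.34 in wild-type livers (SD, n = 3 each). Krt19 then had 0.20 (SE 0.19), Krt7 0.05 (SE 0.08), Epcam 0.10 (SE 0.19) and Sox9 -0.21 (SE 0.14). Dmbt1 was above 10 in double knockout replicates 4 and 5 too, where pancreas markers averaged 6.74 and 6.18. After the group means were removed, r with the pancreas acinar mean was 0.75 for Epcam and 0.75 for the mean of the other biliary genes. It was 0.45 for Krt19, 0.24 for Krt7, 0.19 for Cftr, -0.35 for Sox9 and -0.10 for Krt23. How much pancreas RNA added to the levels of the duct genes was not tested.

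A further pancreas list had 6 measured genes, Ins2, Gcg, Sst, Pdx1, Nkx6-1 and Ptf1a. It held no marker of mature ducts, so it cannot speak for pancreas duct RNA. Of the 6, 5 lay below the olfactory 95th percentile, 0 were called in limma and 0 had an unadjusted p under 0.05. Their mean level was 6.12 to 6.26 on double knockout and 6.16 to 6.39 on wild-type arrays, with differences of -0.11 for Ins2 and -0.05 for Nkx6-1. Mesothelial cells, which also make Krt7, Krt8, Krt18 and Krt19, had means that were lower in double knockout livers for 8 of 8 markers. The median was -0.04, 0 were called in limma and 1 had an unadjusted p under 0.05, with -0.13 (SE 0.05) for Wt1 and -0.17 (SE 0.11) for Gpm6a. Gut epithelium had 7 of 8 markers with lower means, a median of -0.05 and no call in limma, also at an unadjusted p under 0.05, with -0.10 for Muc2, 0.02 on its second probe set, and -0.10 for Vil1.

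Macrophage markers had higher means in double knockout livers, as Krt23 had. In double knockout livers the mean was higher for all 15, with a median of 0.22, 2 called beside 0.884% of all probe sets, 9 with an unadjusted p under 0.05 beside 15.1% of all probe sets, and a list mean of 9.03 to 9.31 on double knockout and 8.79 to 9.08 on wild-type arrays. The scavenger receptors Cd163 and Marco were called, with 0.44 (SE 0.08, limma adjusted p = 0.0284) and 0.61 (SE 0.13, limma adjusted p = 0.0475). Cd163 lost its call without double knockout replicate 2, 3 or 4 or wild-type replicate 2, and Marco in 8 of the 10 fits that left out 1 array, with limma adjusted p up to 0.087 and 0.118. Over all 25 alternative fits, Cd163 lost its call in 10 and Marco in 16, both of them with the replicate block and with every row of the table tested, and Marco also with median centring (limma adjusted p = 0.0502). In a fit with the macrophage mean as covariate, also added later, the Krt23 difference was 0.83 (SE 0.21, limma adjusted p = 0.218). The mean itself differed between the groups, and its part in the result was not tested otherwise. After the group means were removed, Krt23 had r of 0.02 with the macrophage mean, -0.40 with Cd163 and -0.02 with Marco over the 10 arrays, given as a description.

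The remaining cell types had no called marker in limma. Of 12 endothelial markers 1 had an unadjusted p under 0.05, with a median of 0.05 and values of 0.13 for Cdh5 and 0.12 for Pecam1. Of 14 stellate cell and fibroblast markers 2 did, with a median of -0.003 and values of -0.17 for Reln and -0.17 for Colec11. Of 12 hepatocyte markers 1 did, with a median of -0.01, 0.34 for the drug-metabolising gene Cyp3a11 and -0.11 for Serpina1a. Among probe sets above the olfactory 95th percentile alone, Cyp3a11 (limma adjusted p = 0.0492) and Reln (limma adjusted p = 0.0474) were called, and Cyp3a11 was called in 3 of 25 alternative fits in all.

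**Figure D4:**
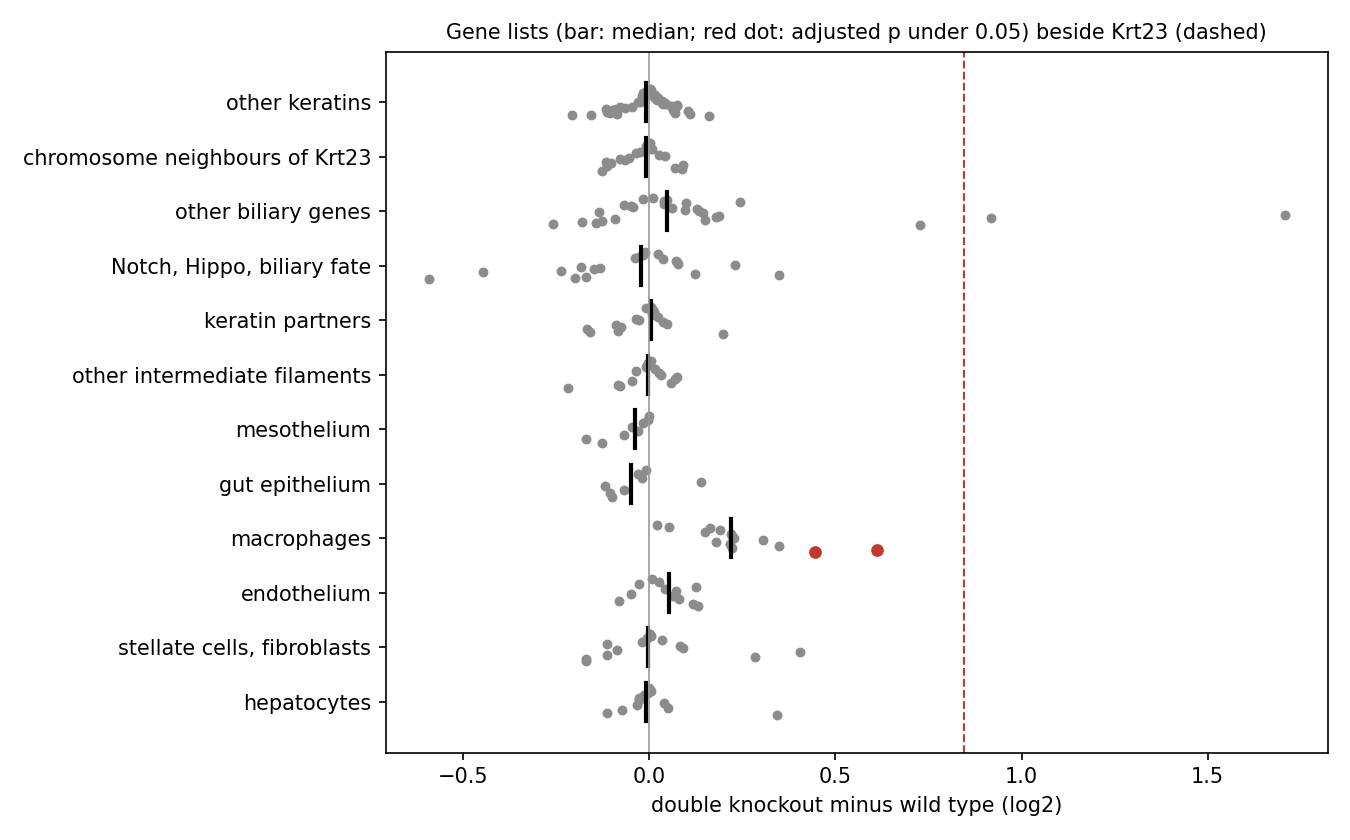
Double knockout minus wild-type difference on the log2 scale (horizontal axis) for each measured gene of 12 lists (rows), with the list median as a black bar, called genes in red and Krt23 as the dashed line at 0.85. The other keratins lie between -0.21 and 0.16, and in the biliary list Mmp7 and Dmbt1 lie beyond Krt23 without being called.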

How the data were processed

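The values were the log2 expression levels per probe set that the authors deposited for the 10 arrays, per the submitters' processing notes by means of Affymetrix Expression Console. Neither its algorithm nor its version was stated in the sources used here. Array quartiles lay within 0.05 of each other, so the table had been normalized before deposit, and no further normalization was applied. Scanner files and dates were not used here, and array number limits the precision.

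Probe sets were named from the platform annotation: 23521 had 1 symbol, 1814 several and 16010 none. The 25335 with a symbol were fitted in limma 3.58.1 under R 4.3.3 (lmFit, eBayes, two-sided) on group alone, and p-values were adjusted by Benjamini-Hochberg. A gene was represented by its probe set of highest mean.

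Members and lists were chosen with earlier results of these data known. Named were all members, per list up to 4 called genes or else the 2 of lowest p, the 3 nearest neighbours of Krt23 on each side, and the genes of closest pattern. Further genes, such as Pkhd1, Dmbt1, Cldn3, Tead1 and Ccn2, were named outside this rule with their values known. Alternatives changed the variance prior, array weights, normalization, filter, rows tested, replicate block, covariates and arrays. The labels do not state that each sample is a separate animal; otherwise p-values measure only the spread between samples.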

Additional observations from a re-analysis of the deposited data

Results flagged for a closer look

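The 9 probe sets and 4 marker means were examined in each group, 26 sets of 5 arrays, for an array far from the rest by Dixon's ratio, and 3 sets had such an array. Chance gives about 1 in 20. Epcam was 7.06 in wild-type replicate 5, with the next array at 6.15, in the liver that also had the highest pancreas, Dmbt1 and Muc1 levels. Cftr was 4.70 in wild-type replicate 2, with the next array at 4.95, at levels below the olfactory 95th percentile. The mean of the other biliary genes was 7.39 in double knockout replicate 3, with the next array at 7.76, in the liver that also had the lowest Krt19 and Epcam levels.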

How the results depend on the processing

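The Krt23 difference stayed between 0.75 and 0.92 in all 25 alternative fits, and the median of the other members between -0.01 and 0.08. The fits without 1 array gave 0.76 to 0.92 and -0.01 to 0.06. The Krt23 call was lost without double knockout replicate 4 or 5, without the 4 arrays with pancreas RNA and with the macrophage mean or the olfactory receptor mean as a covariate (0.75, limma adjusted p = 0.128, with the last).

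The number of called probe sets moved more, from 224. It was 377 for probe sets above the olfactory 95th percentile, 75 with every row of the table, 585 at an adjusted p under 0.1, 68 without the arrays with pancreas RNA, 613 without replicate 1 of both groups and 64 to 253 without 1 array. Covariates added after the data were seen gave 8 for macrophage markers, 53 for olfactory receptors and 106 for the other biliary genes. Of the fits without 1 array, the lowest count, 64, came without wild-type replicate 2.

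With the replicate block the count was 76, and Krt23 stayed called. The labels do not say what the replicate number stands for. Deviations of same-numbered arrays correlated at -0.48 to 0.13, and 0 of the 10 arrays correlated best with their own number. Krt23 has 1 probe set, so averaging over probe sets gave no alternative for it. The cause of these shifts was not tested. Low signal limits Cftr, Epcam and most other keratins.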

Other observations

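Genes of Notch and Hippo signalling, the pathways that guide biliary fate, were examined as a further list, together with Foxl1, Tnfrsf12a and Sox4. Of 20 measured genes 0 were called in limma, 7 had an unadjusted p under 0.05, beside 15.1% of all probe sets, and the median difference was -0.02. In double knockout livers 8 had a higher and 12 a lower mean. Of the 7, Tead1 (0.35, SE 0.11) and Rbpj (0.12, SE 0.04) were higher, and Ccn1, Notch2, Wwtr1, Hes1 and Jag1 lower. Ccn2 had a difference of 0.23 (SE 0.17). Ccn1, a target of the Hippo effector YAP, stood at 8.48, 8.26, 8.86, 8.63 and 8.70 in double knockout livers, against 8.84, 9.05, 9.13, 9.35 and 9.53 in wild-type livers. Double knockout replicate 3 reached into the wild-type range, and the difference was -0.59 (SE 0.13, limma adjusted p = 0.0627). It was called among probe sets above the olfactory 95th percentile (limma adjusted p = 0.0426), without wild-type replicate 1 (limma adjusted p = 0.0394) and without replicate 1 of both groups (limma adjusted p = 0.032). The receptor Notch2 did not overlap between the groups, beside 3.90% of all probe sets. It stood at 8.60 to 8.91 in double knockout and 8.95 to 9.06 in wild-type livers, with a difference of -0.20 (SE 0.06, limma adjusted p = 0.133).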
